A study of Mus musculus with 80 samples.

Results

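The comparison described here is that of hepatocyte nuclei from mice without food for 24 h with hepatocyte nuclei from mice without food for 3 h. It rests on 8 of the 80 libraries of the series, the 4 libraries of each fasted hepatocyte group, chosen by their sample labels alone and with no pooled whole-liver sample among them. Female HEP-INTACT mice, a line in which hepatocyte nuclei carry a tag for affinity capture (INTACT, isolation of nuclei tagged in specific cell types), lost access to food at zeitgeber time (ZT) 12, the start of their active dark phase. Livers of the 2 fasted groups were taken after 3 h, at ZT15, and after 24 h, at ZT12 of the next day. Time without food and time of day therefore change together, so the 8 libraries of mice of the same line fed ad libitum, 4 killed at ZT15 and 4 at the following ZT12, are set beside them at each step. The libraries hold total nuclear RNA without selection for polyadenylated RNA, so reads come from introns as well as exons. The promoter that drives the tag, the strain background, the age of the mice and how many mice went into each tagged library are not stated in the labels, and p-values measure the spread between libraries. All mice carry the tag, fed mice included, and each group is a separate set of mice rather than the same mice followed over time.

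Fasting turns the liver from storing fuel to releasing it. As insulin falls and glucagon and glucocorticoids rise, hepatocytes first break down glycogen, then make glucose from lactate, glycerol and amino acids, and burn fatty acids arriving from adipose tissue, partly to ketone bodies, under the nuclear receptor PPARα. Programs for making fatty acids, driven by the transcription factors SREBP-1c and ChREBP, subside. The liver also has a strong daily rhythm, set by its own circadian clock and by meals, and a fed mouse eats little in the light phase, so that ZT12 closes a long interval with little intake even when food is present.

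Across the genome, more genes were called in opposite directions in fasted and fed mice than in the same direction. Of 12942 genes tested, 1538 differed between 24 h and 3 h of fasting (11.9% of the genes tested; edgeR quasi-likelihood test, Benjamini-Hochberg adjusted p under 0.05, called genes below). Of these, 726 (5.61%) were higher and 812 (6.27%) lower at 24 h, and 529 differed by 2-fold or more. The counts of called members in each gene list below are to be read against these shares. The lists were chosen with earlier results of these data known, so a higher share may be built into that choice. The 4 and 4 libraries did not overlap in 1331 of the called genes, against 2505 of all genes tested. In fed mice 2815 genes (21.8%) differed between the same clock times, 1511 (11.7%) higher and 1304 (10.1%) lower. Only 152 genes were called in both comparisons in the same direction, whereas 279 were called in both in opposite directions. The fasted and fed comparisons share no library, and across genes their log2 differences had a Pearson correlation of -0.09, a description over genes that are not independent replicates.

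The difference between the fasted and the fed difference was itself tested, and 2820 genes (21.8%) were called, 1346 (10.4%) with a more positive and 1474 (11.4%) with a more negative difference in fasted mice. By these calls 137 genes were shared, meaning called in fasted and fed mice in the same direction with no called difference between the 2. A further 974 were called in fasted mice and differed from fed mice in the same direction, 487 higher and 487 lower at 24 h. These 2 calls use the same fasted libraries, so their agreement in direction is largely built in. The 974 and the 137 are therefore not counts of like kind. For 415 genes called in fasted mice alone, no difference from fed mice was called. The reverse pattern was more frequent: 1364 genes were called in fed mice and in the difference but not in fasted mice, 788 of them higher in fed mice at 24 h. The number of genes called higher in fasted mice fell to 428 without fasted 3 h replicate 3, the single left-out library that moved a fasted count by over 1.5 times.

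**Figure D1:**
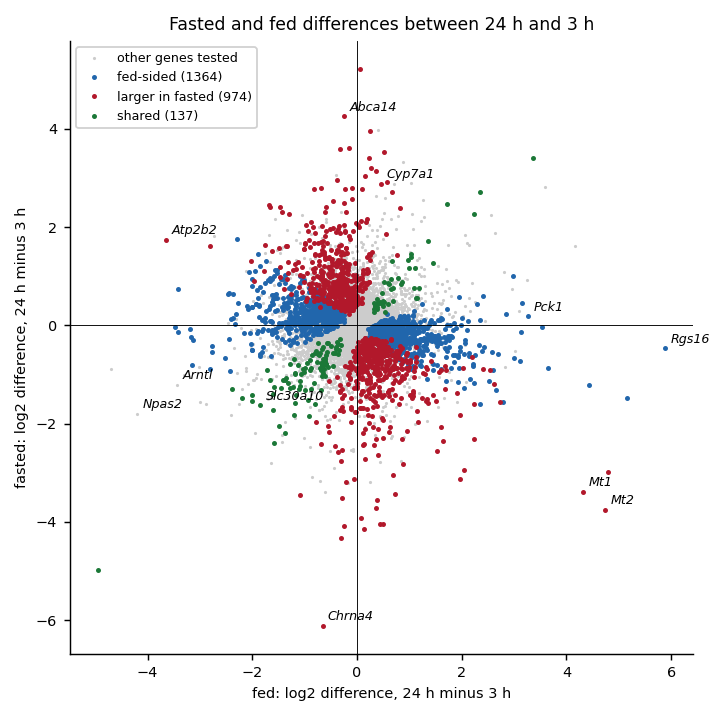
Each point is a gene, with the log2 difference between 24 h and 3 h in fed mice on the x axis and in fasted mice on the y axis. Mt1 and Mt2 lie low on the right, with fed differences of 4.32 and 4.74 and fasted differences of -3.39 and -3.75, and the 137 shared genes lie in the upper right and lower left.

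The 8 fasted libraries held 12597786 to 30089561 counts and the 8 fed ones 13659607 to 27788128. Hepatocyte identity was plain in all of them, with albumin (Alb) at 3703 to 7143 CPM (counts per 1000000 of the TMM-scaled library total) in the fasted libraries. Markers of other liver cells were present, with sums below the level of Alb alone, and no difference in their sums between the fasted groups passed the test. The endothelial gene Stab2 alone was at 51.7 to 124.7 CPM in the fasted libraries. The 26 Kupffer cell and macrophage markers summed to 408 to 483 CPM at 3 h and 390 to 441 CPM at 24 h (exact permutation test, two-sided, p = 0.257), the 20 sinusoidal endothelial markers to 172 to 422 and 302 to 349 CPM (exact permutation p = 0.657), and the 20 stellate cell markers to 77.6 to 138 and 76.2 to 89.2 CPM (exact permutation p = 0.257). With 4 against 4 libraries the smallest p this test allows is 0.0286. Of these lists, 3 of 26, 0 of 20 and 1 of 20 genes were called, and none of 8 cholangiocyte, 4 lymphocyte and 3 monocyte and neutrophil markers tested, against 11.9% of all genes tested. The cholangiocyte markers summed to 199.5 to 257 CPM at 3 h and 201 to 299 CPM at 24 h of fasting (exact permutation p = 0.257). In fed mice they summed to 396 to 532 and 401 to 662 CPM. The macrophage scavenger receptor gene Marco was at 0.604 ± 0.207 CPM at 3 h and 2.09 ± 0.345 CPM at 24 h, and the collagen gene Col3a1 at 3.46 ± 1.34 and 1.57 ± 0.274 CPM. Cd74, the invariant chain of class II antigen presentation, was at 2.04 ± 0.379 and 1.06 ± 0.435 CPM, a call lost without fasted 24 h replicate 2 (adjusted p = 0.0555). Fasted 3 h replicate 2 stood apart from its group: on the first principal component of the 16 libraries (40.1% of the variance) it lay at 9.47, against 30.7 to 44.1 for the other 3. Without it 676 genes were called higher and 786 lower in fasted mice.

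Of the 10 genes with the highest differences, 9 were not called in fed mice, where most genes were not called (21.8% of all genes tested were). Abca14, an ATP-binding cassette transporter gene of family A (chr7:120203964-120325352, mm10), was at 2.48, 1.53, 0.727 and 2.58 CPM in the 3 h libraries and at 41.3, 43.4, 24.6 and 31.4 CPM in the 24 h libraries. The groups were far apart, and the log2 difference was 4.26 ± 0.40 (SE; edgeR adjusted p = 1.06e-07). The 4 fed libraries lay at 11.99, 5.69, 4.38 and 4.03 CPM at 3 h and at 4.69, 2.86, 8.53 and 5.59 CPM at 24 h, and overlapped. Tmem163, which encodes a membrane protein that transports zinc, rose from 16.6 ± 7.47 (SD, n = 4) to 192 ± 87.8 CPM, and the methyltransferase-like gene Mettl24 from 7.08 ± 2.52 to 65.1 ± 9.92 CPM. For these 3 genes the fasted difference exceeded the fed one by 4.51, 3.01 and 2.93 log2 units (adjusted p at most 0.000156). Grm8, a metabotropic glutamate receptor gene, had a log2 difference of 3.14 ± 0.59. Replicate 4 raised it: the fasted 24 h libraries were at 12.4, 13.9, 10.6 and 60.5 CPM, after a 3 h mean of 2.73 CPM. Among low genes, the interferon-inducible family member Ifit1bl2 (3.96 ± 0.63), the homeobox gene Barx2 (3.61 ± 0.60) and the vomeronasal receptor gene Vmn2r1 (3.40 ± 0.67) rose from means of 0.155 to 0.189 CPM at 3 h to 1.46 to 3.36 CPM at 24 h.

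Of the 10 genes with the lowest differences, 8 are described here and Mt2 and Thrsp with their lists. Rarres1, a retinoic acid responsive gene, fell from 105, 54.9, 87.9 and 40.6 CPM at 3 h to 3.73, 4.01, 6.11 and 2.10 CPM at 24 h, a log2 difference of -4.14 ± 0.47 (adjusted p = 2.48e-06). Its 16 fed values at 3, 8, 16 and 24 h had means of 16.9, 17.7, 22.0 and 18.5 CPM. The level in fasted mice was thus above every fed mean at 3 h and below every fed mean at 24 h. Chrna4, a nicotinic acetylcholine receptor subunit gene, was at 1.95, 5.54, 12.8 and 4.71 CPM at 3 h and at 0, 0.119, 0.102 and 0.0776 CPM at 24 h, where 7 counts were found over 4 libraries. Its fed libraries varied widely, from 1.53 to 89.3 CPM at 3 h. Ptgds, which encodes a prostaglandin D2 synthase, fell by 4.09, the transcription factor gene Nfe2l3 fell by 3.56 and Hrk, which encodes a BH3-only regulator of cell death, fell by 3.52 log2 units. The major urinary protein genes Mup8, Mup9 and Mup12 fell by 3.92, 4.03 and 4.04 log2 units, but reads of these near-identical paralogs cannot be assigned to 1 gene with certainty. The adjusted p of each of these genes was at most 0.00196.

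Metallothioneins bind zinc and copper and are classic targets of glucocorticoids and of the metal-sensing factor MTF-1, and both genes ran in opposite directions in fasted and fed mice. Mt2 (chr8:94172618-94173567, mm10) was at 159, 84.3, 202 and 135 CPM in the fasted 3 h libraries and at 10.8, 12.9, 5.06 and 14.8 CPM in the fasted 24 h libraries. In fed mice it was at 0.620, 0.390, 0.217 and 0.153 CPM at 3 h and at 3.21, 6.77, 23.7 and 4.93 CPM at 24 h. The groups did not overlap in either comparison: the fasted level fell 13.5-fold and the fed level rose 26.8-fold, to means of 10.9 and 9.66 CPM at 24 h. Mt1 went from 141 ± 42.1 to 13.6 ± 6.396 CPM in fasted and from 0.777 ± 0.433 to 15.6 ± 14.6 CPM in fed mice, and the difference between the 2 comparisons was -7.71 ± 0.97 for Mt1 and -8.49 ± 0.997 for Mt2 (adjusted p at most 3.99e-06). The genes lie side by side and are similar in sequence, so part of their reads could be assigned to the wrong one of the pair. The fall was steep early, with Mt1 at 41.4 ± 18.6 CPM at 8 h and 20.8 ± 18.5 CPM at 16 h of fasting. Of 12 metallothionein and zinc transporter genes tested, 0 were called higher and 5 lower in fasted mice (median log2 difference -0.27, against 0.00472 over all genes tested). The zinc exporter gene Slc30a1 fell from 13.3 ± 1.64 to 6.17 ± 0.724 CPM with a fed difference of 0.24 ± 0.18 that was not called. Slc30a10, an exporter of manganese, fell in both, by 1.63 in fasted and by 1.85 in fed mice, with 8 h and 16 h fasted means of 47.1 and 50.8 CPM above both ends.

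The 250 bases upstream of the RefSeq starts of both metallothionein genes are shown because these genes had opposite courses and known metal response elements. Capitals mark each match on either strand to the core of the metal response element, TGCACNC or TGCGCNC, a motif chosen after the changed lists had been seen. Mt1 lies at chr8:94178839-94179088 and Mt2 at chr8:94172368-94172617, both on the plus strand of GRCm38.
Mt1: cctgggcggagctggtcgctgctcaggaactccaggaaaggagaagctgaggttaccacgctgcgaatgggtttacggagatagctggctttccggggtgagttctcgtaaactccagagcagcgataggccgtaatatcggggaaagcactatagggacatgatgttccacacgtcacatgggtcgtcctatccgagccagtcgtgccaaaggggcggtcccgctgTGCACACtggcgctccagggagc
Mt2: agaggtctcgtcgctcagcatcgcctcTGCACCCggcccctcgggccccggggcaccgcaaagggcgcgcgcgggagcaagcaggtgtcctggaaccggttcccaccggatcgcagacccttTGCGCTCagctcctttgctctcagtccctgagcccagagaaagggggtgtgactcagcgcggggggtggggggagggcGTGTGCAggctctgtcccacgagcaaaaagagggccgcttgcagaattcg
The Mt1 window held 1 match and the Mt2 window 3. Elements outside these windows, downstream of the listed starts included, were not counted, so these are not counts for the whole promoters. A match to so short a motif is common: 29.9% of the 9934 promoters of tested genes in the RefSeq table held at least 1, as did 31.0% of promoters of genes called higher and 28.2% of those called lower in fasted mice.

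Of 27 genes of fatty acid and triglyceride synthesis tested, 13 fell and 0 rose in fasted mice (median -0.79). In fed mice 11 fell and 3 rose. The number that fell in fasted mice was 10 without fasted 3 h replicate 3 and 11 without replicate 2. Srebf1, which encodes SREBP-1, was at 54.2, 95.7, 77.3 and 147 CPM at 3 h and at 20.7, 24.1, 25.3 and 25.1 CPM at 24 h of fasting, and at 508, 377, 472 and 618 and 219, 318, 253 and 349.8 CPM in the fed libraries of the same times. All 4 groups were separate, with fasted libraries below fed ones at both times. Its listed span overlaps Rai1. The fasted fall of 1.97 log2 units was larger than the fed fall of 0.79 (difference -1.18 ± 0.39, adjusted p = 0.0315). Mlxipl, which encodes the glucose-responsive factor ChREBP, fell from 1418 ± 359 to 512 ± 73.1 CPM while fed levels were 1471 ± 188 and 1739 ± 351 CPM. Thrsp, an inducible lipogenic cofactor also called Spot 14, fell 13.2-fold, and the desaturase gene Fads1 fell by 0.87 log2 units. Scd1, the delta-9 desaturase, fell in fasted (-2.403 ± 0.53) and fed mice (-1.59 ± 0.50), from quite different levels: 64.6 ± 24.3 CPM in fasted and 775 ± 385 CPM in fed mice at 3 h.

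Fasn, fatty acid synthase, was at 117 ± 35.2 CPM at 3 h and 54.2 ± 2.49 CPM at 24 h of fasting, a difference that did not pass the test (-1.11 ± 0.47, adjusted p = 0.127, and 0.00515 in the fit to the compared groups alone). In fed mice it fell from 1723 ± 754 to 438 ± 187 CPM. Acly, ATP citrate lyase, stood at 71.4, 57.0, 82.8 and 79.0 and 103, 90.2, 117 and 145 CPM in fasted mice (0.65 ± 0.27, adjusted p = 0.121, and 0.0246 in the fit to the compared groups alone) and fell from 1060 ± 448 to 205 ± 74.5 CPM in fed mice. The 2 differences of Acly were 3.02 log2 units apart (adjusted p = 4.83e-06).

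Of 47 genes of fatty acid oxidation tested, 12 fell and 0 rose in fasted mice (median -0.43), whereas 8 rose and 4 fell in fed mice. Ehhadh, the peroxisomal bifunctional enzyme, was at 394 ± 185 CPM at 3 h, 1359 ± 472 at 8 h, 197 ± 60.2 at 16 h and 109 ± 49.5 at 24 h, a net fall of 1.85 log2 units. Pdk4, the kinase that shuts pyruvate dehydrogenase, followed the same outline with 76.3 ± 71.9, 219 ± 113, 32.3 ± 14.5 and 14.8 ± 3.93 CPM. Its 3 h libraries were uneven, with replicate 1 at 183 CPM and the others at 26.8 to 56.4 CPM. The thioesterase gene Acot1, which has close paralogs, fell by 1.68 log2 units. Ppara itself, the receptor behind this program, fell from 2882 ± 337 to 1476 ± 225 CPM in fasted mice and rose from 1271 ± 237 to 2187 ± 336 CPM in fed mice (difference -1.75 ± 0.28, adjusted p = 6.73e-05).

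Of 18 genes of lipid droplets and lipolysis tested, 5 fell and 0 rose in fasted mice (median -0.48), against 1 in each direction in fed mice. Plin2, the main coat protein of hepatocyte lipid droplets, was at 241, 163, 121 and 148 CPM at 3 h and 65.1, 46.3, 69.1 and 59.2 CPM at 24 h, after 315 ± 70.1 CPM at 8 h. Plin3, a related coat protein, fell by 0.89 log2 units, and Lipa, the lysosomal acid lipase, by 0.88, a call lost without fasted 3 h replicate 2 (adjusted p = 0.0529). In ketogenesis, 8 genes were tested, and 2 fell and 1 rose in fasted mice. The monocarboxylate carrier gene Slc16a1, through which ketone bodies leave the cell, fell by 0.69 in fasted and by 1.201 in fed mice.

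**Figure D2:**
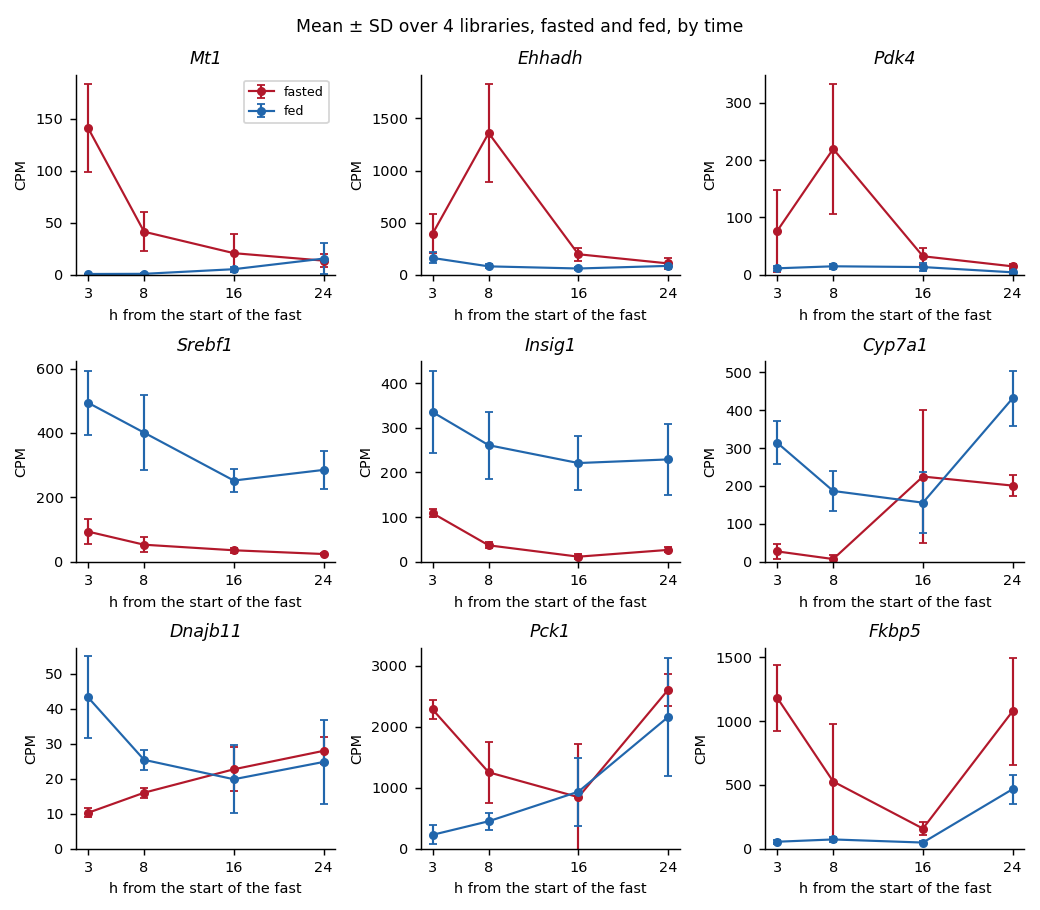
Mean CPM with SD over 4 libraries is plotted against h from the start of the fast for 9 genes in fasted (red) and fed (blue) mice. Ehhadh and Pdk4 have their highest fasted means at 8 h, Mt1 falls from 3 h, Srebf1 stays below fed mice at all 4 times, and Cyp7a1 is low at 3 and 8 h of fasting and high at 16 and 24 h.

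Cyp7a1 (chr4:6265612-6275631, mm10), which controls the entry of cholesterol into the main route of bile acid synthesis, was at 18.8, 55.9, 21.9 and 12.01 CPM at 3 h and at 169.5, 223, 228 and 184 CPM at 24 h of fasting. The fasted groups did not overlap and the rise was 7.39-fold (2.89 ± 0.64, adjusted p = 0.00311). It led from a low point, 6.90 ± 9.61 CPM at 8 h, back toward fed levels, which were 314 ± 56.5 CPM at 3 h and 432 ± 72.1 CPM at 24 h. The other called genes of bile acid synthesis and sterol efflux went down: of 28 tested, 1 rose and 6 fell in fasted mice (median -0.25), and 9 rose and 4 fell in fed mice. Cyp27a1, which starts the alternative route of bile acid synthesis, fell from 762, 793, 911 and 677 to 355, 424, 246 and 222 CPM in fasted mice and rose from 319 ± 46.0 to 669.5 ± 144 CPM in fed mice. Abcg8, a subunit of the sterol exporter of the canalicular membrane, was at 156, 155, 158 and 153 CPM in the fasted 3 h libraries and at 103, 90.3, 68.7 and 72.8 CPM at 24 h, and in fed mice rose 5.31-fold, from 21.9 ± 6.30 CPM. Its listed span overlaps Abcg5, its divergent partner on the other strand. Abcc3, a basolateral exporter of bile acids and conjugates, fell by 1.06 log2 units in fasted mice, and Hsd3b7, an enzyme of the sterol nucleus of bile acids, by 0.89 in fasted and 1.04 in fed mice.

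Of 27 genes of cholesterol synthesis, 17 fell and 1 rose in fed mice, and 4 fell and 1 rose in fasted mice (median -0.31 in fasted and -0.69 in fed mice). Fasted differences were negative in 22 of the 27. The fasted difference was called above the fed one for 4 genes and below it for 2, so most members were not shown to differ between the feeding states. Insig1, the sterol-responsive brake on SREBP processing, fell from 122, 103, 102 and 107 to 24.0, 20.5, 33.9 and 27.2 CPM in fasted mice, with a lowest mean of 11.2 ± 6.01 CPM at 16 h. Dhcr7, the last enzyme of one branch of the pathway, fell by 0.90 log2 units in fasted mice and 0.89 in fed mice. Mvk, mevalonate kinase, rose from 1.15, 1.18, 1.15 and 1.67 to 2.402, 1.99, 7.64 and 3.26 CPM in fasted mice and fell from 19.5 ± 4.58 to 7.63 ± 2.36 CPM in fed mice, so that the fed level remained the higher one at both times. Its fasted call was lost without fasted 24 h replicate 3 (adjusted p = 0.0605).

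Chaperones of the endoplasmic reticulum (ER), which fold secreted and membrane proteins, had more members called higher than any other list in fasted mice. Of 25 genes of this list tested, 10 rose and 1 fell in fasted mice, against 1 and 1 in fed mice, and the median was 0.62 in fasted and -0.09 in fed mice. The member that fell was Atf6, which encodes a sensor of ER stress (-0.35). In 6 of the 10 that rose the fasted difference was called above the fed one, and for Atf6 it was called below it. Dnajb11, an ER cochaperone, rose from 9.01, 10.4, 9.63 and 11.9 CPM at 3 h to 30.9, 31.8, 24.9 and 24.4 CPM at 24 h (1.45 ± 0.28, adjusted p = 0.000856). In fed mice it was at 43.3 ± 11.7 CPM at 3 h and 24.8 ± 12.1 CPM at 24 h, a called fall, so that the 2 feeding states differed at 3 h and had similar means at 24 h. Calr, the chaperone calreticulin, was at 18.9, 18.04, 17.2 and 27.1 CPM at 3 h and 50.2, 57.4, 43.3 and 53.2 CPM at 24 h of fasting, with fed means of 65.6 and 53.4 CPM. Pdia3, a disulfide isomerase that works with calreticulin, rose from 34.7 ± 4.04 to 76.2 ± 9.76 CPM, and Xbp1, a transcription factor of the unfolded protein response, from 26.7 ± 6.74 to 40.9 ± 3.01 CPM. Canx, the membrane-bound relative of calreticulin, rose by 0.62 log2 units, a call lost without fasted 3 h replicate 3 and without fasted 24 h replicate 2 (adjusted p = 0.0503 to 0.0694). Derl3, a component of ER-associated degradation, had 6 counts over the 4 fasted 3 h libraries and 47 over those at 24 h, and its call (2.60 ± 0.86) was lost in 7 of the 8 fits that left out 1 fasted library (adjusted p = 0.0578 to 0.113). Without fasted 3 h replicate 3 the number of members called higher was 5 and Atf6 was not called, and without replicate 2 the number higher was 9.

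**Figure D3:**
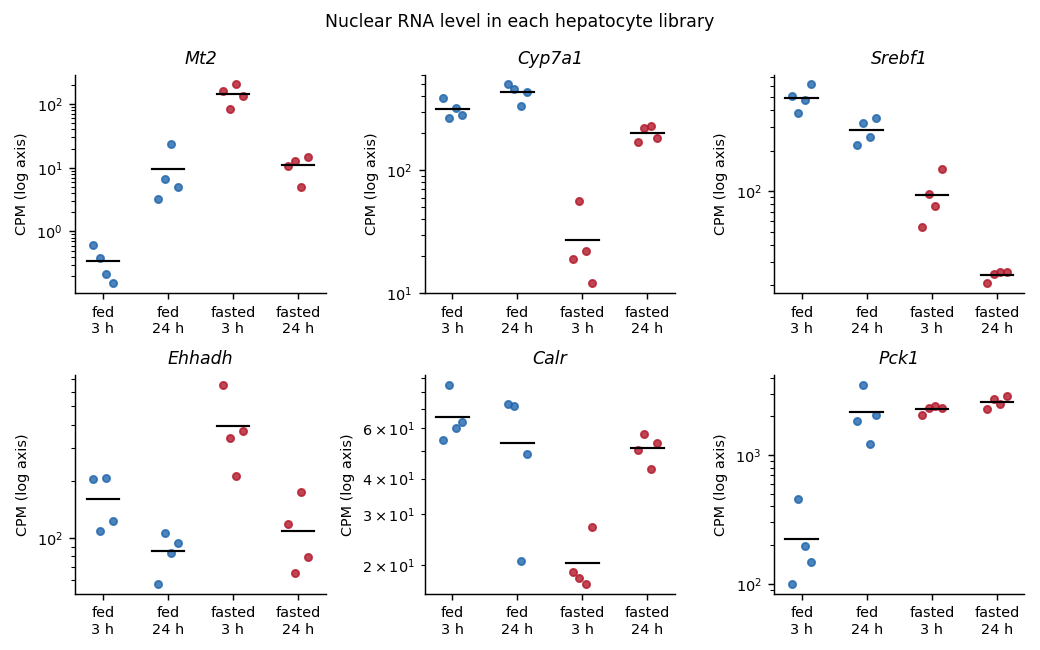
Each dot is the CPM of 1 library on a log axis in fed (blue) and fasted (red) mice at 3 and 24 h, and bars are means of 4 libraries. The fasted 3 h group has the lowest mean for Calr and Cyp7a1 and the highest for Mt2, and for Pck1 the fasted groups overlap while fed 3 h libraries lie at 100.3 to 455 CPM.

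The ER stress element, CCAAT followed after 9 bases of any kind by CCACG, is the site through which ATF6 with NF-Y is known to act on ER chaperone promoters. It was searched after the changed lists had been seen, on both strands of the 250 bases upstream of the start. It occurred in 18 of 9934 promoters (0.181%), and 9 of those 18 belonged to the 22 genes of the ER list with a promoter in the table. These were Hspa5, Hsp90b1, Pdia6, Calr, Canx, Dnajc3, Creld2, Syvn1 and Derl3, of which Calr, Canx and Derl3 were called higher at 24 h of fasting. Their windows are printed to show the element, in capitals, in its place: Calr at chr8:84846932-84847181 and Canx at chr11:50325674-50325923 on the minus strand, and Derl3 at chr10:75893148-75893397 on the plus strand of GRCm38.
Calr: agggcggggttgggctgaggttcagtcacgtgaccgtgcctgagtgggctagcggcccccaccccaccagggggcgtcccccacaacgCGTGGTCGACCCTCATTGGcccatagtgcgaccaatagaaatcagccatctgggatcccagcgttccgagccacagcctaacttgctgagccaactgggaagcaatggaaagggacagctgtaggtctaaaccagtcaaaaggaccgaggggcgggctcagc
Canx: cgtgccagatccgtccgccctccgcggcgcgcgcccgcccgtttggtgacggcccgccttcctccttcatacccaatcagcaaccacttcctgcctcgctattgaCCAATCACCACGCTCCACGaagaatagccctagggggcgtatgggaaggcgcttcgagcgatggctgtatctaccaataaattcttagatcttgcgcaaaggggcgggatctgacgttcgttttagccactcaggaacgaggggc
Derl3: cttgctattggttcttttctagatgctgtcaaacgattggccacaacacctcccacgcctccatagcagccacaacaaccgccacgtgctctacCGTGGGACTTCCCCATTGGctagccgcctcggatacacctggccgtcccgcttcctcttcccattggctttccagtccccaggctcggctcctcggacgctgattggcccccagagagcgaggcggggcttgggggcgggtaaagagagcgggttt
The match began at position -162 in Calr, -145 in Canx and -156 in Derl3, counted from the start, in reverse orientation in Calr and Derl3. Of promoters of all genes called higher, 3 of 551 (0.544%) held the element, and of those called lower, 1 of 611 (0.164%). The 3 are Calr, Canx and Derl3, members of a list seen before the search, so these shares are no separate observation. A match describes the letters of the window and not the use of a site.

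Acute phase proteins are plasma proteins that hepatocytes secrete under cytokine and glucocorticoid signals. Of 26 tested, 11 fell and 0 rose in fasted mice (median -0.65), while 5 rose and 0 fell in fed mice (median 0.33), and in 9 of the 11 the fasted difference was called below the fed one. Without fasted 3 h replicate 3 the number that fell in fasted mice was 8. Saa4, the constitutive serum amyloid A gene, was at 186, 81.8, 189.9 and 209 CPM at 3 h, 20.4 ± 7.93 CPM at 8 h and 41.5, 52.8, 27.9 and 27.6 CPM at 24 h of fasting. In fed mice it rose from 42.7 ± 6.01 to 82.8 ± 18.7 CPM. Saa1, an inducible paralog whose reads may be shared, was near 0 after 8 h, with 1.68 ± 1.05 CPM at 3 h and 0.155 ± 0.0569 CPM at 24 h. Steap4, a metalloreductase, fell 3.53-fold, and Cp, ceruloplasmin, the copper carrier of plasma, fell from 634 ± 194 to 247 ± 63.7 CPM. Cp overlaps the gene Hps3. Of 18 cytokine and NF-kB target genes, 3 fell and 0 rose (16.7% called, against 11.9% of all genes tested). Among them were the chemokine genes Cxcl1, from 3.92 ± 1.89 to 0.904 ± 0.234 CPM, and Cxcl9, from 0.624 ± 0.273 to 0.0717 ± 0.122 CPM. Of 19 immediate early genes, which respond to stimuli within minutes, 3 fell and 0 rose (15.8% called, near the share over all genes tested). The small Maf factor gene Maff fell 3.03-fold in fasted and rose 4.70-fold in fed mice, Klf6 fell by 1.45 and Fosl2 by 0.66 log2 units.

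Of 41 interferon-response genes tested, 10 fell and 0 rose in fasted mice (median -0.29), and 4 rose and 5 fell in fed mice. Without fasted 3 h replicate 2 the number that fell was 4. Iigp1, an immunity-related GTPase, was at 79.0, 175, 70.3 and 80.2 CPM at 3 h, with replicate 2 above the others, and at 29.0, 31.0, 42.5 and 31.2 CPM at 24 h. In fed mice it rose from 102 ± 21.0 to 177 ± 31.6 CPM. Oas2, a 2′-5′ oligoadenylate synthetase with close paralogs, fell by 1.84 log2 units, and Usp18, which removes the ubiquitin-like protein ISG15, from 18.7 ± 2.52 to 8.49 ± 1.19 CPM.

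Most of the genes used as signs of fasting did not pass the test between 3 h and 24 h without food, as was so for most genes tested. Of a panel of 25 fasting-responsive genes, 1 rose (Cyp7a1) and 6 fell in fasted mice, against 9 and 3 in fed mice, and in 11 the fasted difference was called below the fed one. The panel was thus called more often than all genes tested, of which 11.9% were called in fasted and 21.8% in fed mice. It was chosen with earlier results of these data known, so the higher share may be built into that choice. Pck1 (chr2:173153073-173159253, mm10), the gluconeogenic phosphoenolpyruvate carboxykinase, was at 2062, 2331, 2395 and 2333 CPM at 3 h and 2286, 2718, 2513 and 2890 CPM at 24 h of fasting. In fed mice it went from 100.3, 455, 195 and 149 CPM to 1848, 3513, 1223 and 2041 CPM, a rise of 9.59-fold, and the fed 24 h libraries spanned the fasted levels. Fkbp5, a glucocorticoid-induced cochaperone, was at 1184 ± 259, 526 ± 451, 157 ± 47.6 and 1078 ± 421 CPM over the 4 fasted times, a course with a trough at 16 h, and rose 8.74-fold in fed mice. Cpt1a, the gate of mitochondrial fatty acid entry, differed by 0.09 ± 0.22 in fasted mice (95% interval -0.36 to 0.53) and rose from 159 ± 5.78 to 689.5 ± 142 CPM in fed mice. The intervals of the other panel genes closest to 0 were -0.79 to 0.65 for the insulin receptor substrate gene Irs2, -0.48 to 0.30 for the clock repressor gene Nr1d2 and -0.75 to 0.98 for the fasting hormone gene Fgf21. A difference of up to 1.5-fold or more is therefore not excluded for Irs2 and Fgf21.

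The other panel genes are given by their fasted differences. Angptl4, a secreted inhibitor of lipoprotein lipase, differed by -0.29 ± 0.33 in fasted mice and rose by 2.06 ± 0.35 in fed mice. Igfbp1, an insulin-repressed binding protein of IGF-1, differed by -0.86 ± 0.83 and rose by 3.65 ± 0.96. Txnip, a glucose-responsive arrestin, differed by -1.14 ± 0.39 (adjusted p = 0.0534) and rose by 2.51 ± 0.42, and its adjusted p was 0.0261 with DESeq2, 0.0260 in the fit to the compared groups alone and 0.0464 without fasted 3 h replicate 4. Not called in fasted mice were G6pc (-0.44 ± 0.49), Ppargc1a (0.31 ± 0.52), Cyp4a14 (-0.40 ± 0.42), Igf1 (0.21 ± 0.47), Cdkn1a (-0.37 ± 0.58) and Asns (1.95 ± 1.13), and none of these was called in fed mice. Cyp4a14, a PPARα target with close paralogs, was far above fed mice at both times: its fasted means were 2170 and 1642 CPM and its fed means 75.8 and 83.7 CPM. Ppargc1a, the coactivator of gluconeogenic genes, had fasted means of 542, 310.4, 114 and 670.4 CPM, lowest at 16 h.

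**Figure D4:**
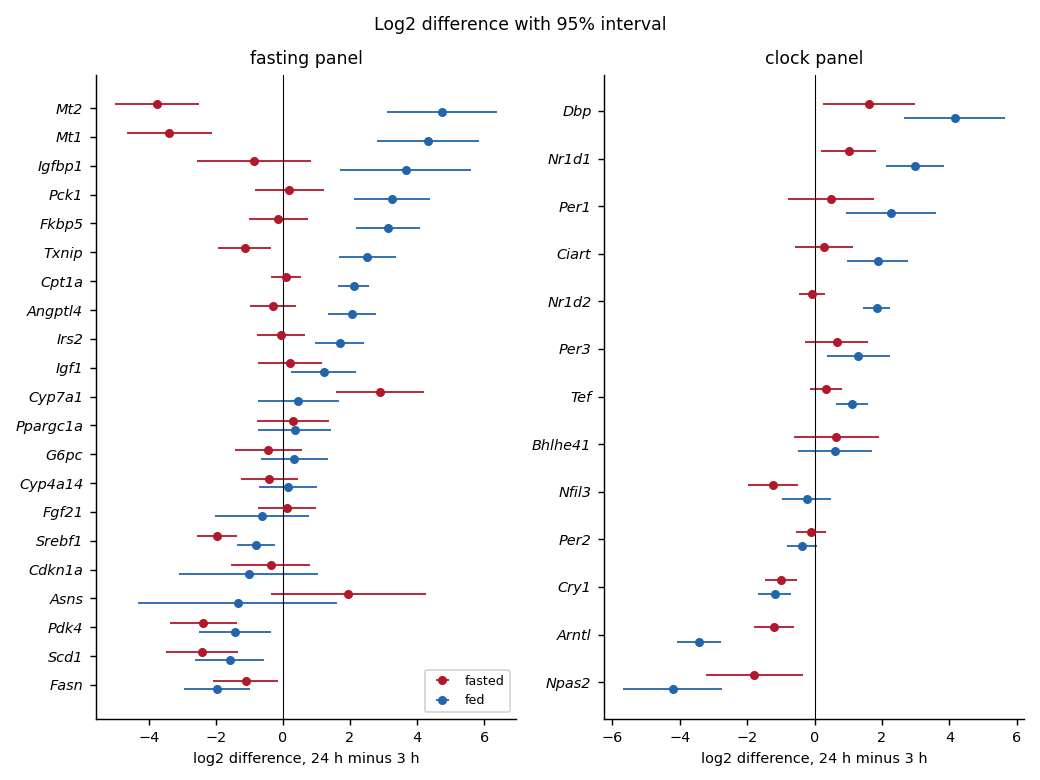
Log2 differences between 24 h and 3 h with 95% intervals are drawn for the genes described from the fasting panel and the clock panel in fasted (red) and fed (blue) mice. Pck1, Fkbp5 and Cpt1a lie in fasted mice at 0.19, -0.14 and 0.09, and at 3.26, 3.13 and 2.11 in fed mice.

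Of 29 glucocorticoid receptor targets, 6 fell and 0 rose in fasted mice, and 11 rose and 1 fell in fed mice. For 10 of them the fasted difference was called below the fed one and for 1 above it. The 6 that fell include Mt1, Mt2 and Pdk4. Without fasted 3 h replicate 3 the number of these targets that fell was 4. Of 26 insulin and FoxO genes, 6 fell and 0 rose in fasted mice, among them Foxo3, from 1235 ± 98.9 to 675 ± 53.1 CPM, and Grb14, an inhibitor of the insulin receptor, from 271 ± 41.4 to 149.5 ± 21.0 CPM. In fed mice 7 rose and 2 fell. Of 30 autophagy and lysosome genes, 2 fell and 0 rose in fasted mice, with Lamp2, a lysosomal membrane protein gene, falling by 0.65 log2 units, and 13 rose and 1 fell in fed mice. Of 25 gluconeogenic genes 1 rose and 2 fell in fasted mice (12% called, near the 11.9% of all genes tested). The riser was Fbp1, fructose-1,6-bisphosphatase, from 305, 296, 328 and 306 to 739, 513, 929 and 856 CPM, while fed libraries were at 618 ± 152 and 445 ± 39.8 CPM (difference 1.77 ± 0.31, adjusted p = 0.000185). Ldha, lactate dehydrogenase, fell by 0.69 log2 units.

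Of 20 glycogen genes tested, 1 rose and 2 fell in fasted mice (15% called, near the 11.9% of all genes tested). Ppp1r3b, the main hepatic subunit that brings protein phosphatase 1 to glycogen, fell by 1.23 in fasted and by 1.09 in fed mice. Its relative Ppp1r3g went from 12.02 ± 6.87 to 1.59 ± 0.617 CPM in fasted mice and from 0.0542 CPM, 6 counts over the 4 libraries, to 2.07 ± 2.71 CPM in fed mice. Phka2, the liver regulatory subunit of phosphorylase kinase, rose from 66.3 ± 22.4 to 121 ± 18.6 CPM.

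**Figure D5:**
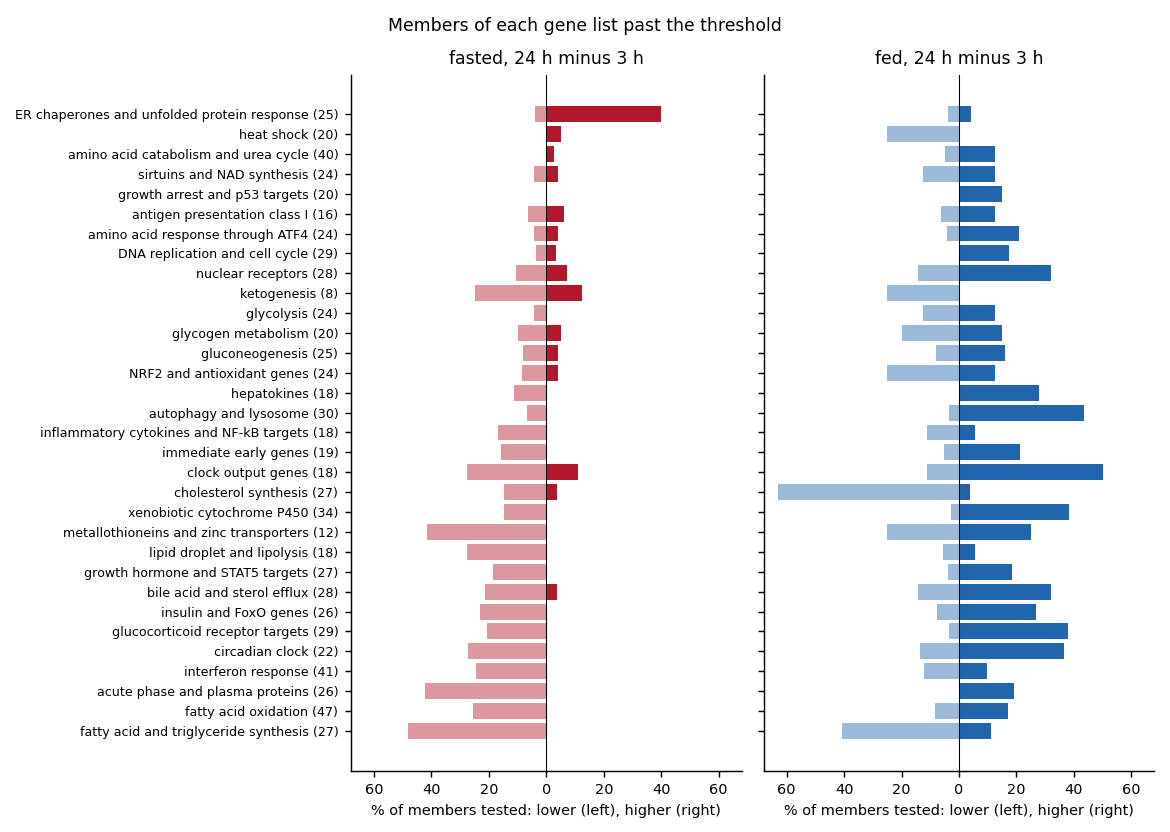
Bars give, for each of 32 gene lists, the percent of members tested that were called higher (right) or lower (left) at 24 h than at 3 h in fasted (red) and fed (blue) mice, with the number tested in brackets. ER chaperones extend to the right in fasted mice with 10 of 25 members, and fatty acid and triglyceride synthesis to the left with 13 of 27. Over all genes tested, 5.61% were called higher and 6.27% lower in fasted mice, and 11.7% and 10.1% in fed mice.

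In the circadian clock, the genes Arntl, Nr1d1 and Nr1d2 differed less between the times in fasted than in fed mice. Between ZT15 and the next ZT12, a gap of a full cycle less a few hours, 3 of 13 clock panel genes fell and 0 rose in fasted mice, and 7 rose and 3 fell in fed mice. Arntl, which encodes BMAL1, the activator of the clock, was at 218, 116, 301 and 147 CPM at 3 h and 101, 61.7, 76.9 and 98.4 CPM at 24 h of fasting, and in fed mice at 331, 218, 198 and 229 and 20.4, 39.8, 12.6 and 18.3 CPM. It fell in both, 2.31-fold and 10.8-fold, and the 2 differences were themselves different (2.22 ± 0.42, adjusted p = 0.000398). Cry1, a repressor, fell in both, by 0.998 and 1.18 log2 units (difference 0.18 ± 0.33, 95% interval -0.50 to 0.86). Nr1d1 and Nr1d2, which encode the REV-ERB repressors, rose in fed mice by 2.97 and 1.84 log2 units. In fasted mice they differed by 1.01 ± 0.40 and -0.09 ± 0.19, and the differences between feeding states were called (-1.96 ± 0.56 and -1.93 ± 0.27). Without fasted 3 h replicate 2 the fasted difference of Nr1d1 passed the test (adjusted p = 0.0277). The output factor gene Dbp had fasted levels of 7.41 ± 3.30 and 22.6 ± 6.44 CPM, with no overlap between libraries, and did not pass the test (adjusted p = 0.116, and 0.0110 in the fit to the compared groups alone). It rose from 3.27 ± 0.360 to 58.7 ± 36.7 CPM in fed mice. Dbp overlaps Sphk2. Nfil3, its antagonist on D-box sites, fell by 1.242 in fasted mice, a call lost without fasted 3 h replicate 3 or any of fasted 24 h replicates 1, 2 and 3 (adjusted p = 0.0559 to 0.0668).

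The remaining clock panel genes were not called in fasted mice. Per1, Per2 and Per3, the period repressors, differed by 0.48 ± 0.62, -0.12 ± 0.22 and 0.66 ± 0.46, and by 2.26 ± 0.65, -0.38 ± 0.22 and 1.30 ± 0.46 in fed mice, where Per1 and Per3 rose. Tef, Ciart and Bhlhe41 differed by 0.34 ± 0.23, 0.28 ± 0.42 and 0.64 ± 0.62, and Npas2, a partner of BMAL1, by -1.79 ± 0.70 (adjusted p = 0.0977, and 0.0292 with DESeq2). Npas2 ran through a peak of 159.6 ± 91.7 CPM at 8 h in fasted and 329 ± 102 CPM in fed mice, so both ends of the comparison sit in its trough. Of 22 clock genes in the wider list, 6 fell and 0 rose in fasted mice, among them Arntl, Cry1 and Nfil3, and in fed mice 8 rose and 3 fell. Of 18 clock output genes, 2 rose and 5 fell, and in fed mice 9 rose and 2 fell. The vasopressin receptor gene Avpr1a fell in fasted (-1.26 ± 0.21) and fed mice (-1.22 ± 0.20), as did the ubiquitin ligase gene Lonrf3 (-0.91 ± 0.19 and -0.68 ± 0.19). Cys1, a ciliary protein gene, fell by 1.67 in fasted mice. Por, the reductase that feeds electrons to cytochromes P450, differed by 0.10 ± 0.30 in fasted mice and rose 5.12-fold in fed mice.

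Of 27 growth hormone and STAT5 targets, 5 fell and 0 rose in fasted mice (18.5% called, against 11.9% of all genes tested), and 5 rose and 1 fell in fed mice. Without fasted 3 h replicate 2, 4 members were called higher. Stat5b and Stat5a, which carry the growth hormone signal to the nucleus, fell by 0.75 and 0.88 log2 units. Elovl3, a fatty acid elongase, fell from 1.42 ± 0.466 to 0.181 ± 0.0803 CPM in fasted mice and rose from 0.177 ± 0.0611 to 0.799 ± 0.372 CPM in fed mice, and its listed span overlaps Pitx3. Cyp3a44, which has close paralogs, fell by 2.82. Of 34 cytochrome P450 genes of foreign compounds, 5 fell and 0 rose in fasted mice (14.7% called, near the share over all genes tested), and 13 rose and 1 fell in fed mice. Without fasted 3 h replicate 2, 1 member was called higher. Cyp2c70 fell 5.91-fold in fasted and rose 2.87-fold in fed mice, Cyp3a13 fell by 0.69 and rose by 0.83, and Cyp2f2 and Cyp1a2 fell by 1.17 and 1.68 log2 units with fed differences that were not called.

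Single members stood out in lists with few calls, where 11.9% of all genes tested were called in fasted mice. Gdf15, a stress hormone, was at 13.6, 8.84, 5.995 and 13.8 CPM at 3 h and 1.01, 0.477, 0.577 and 2.17 CPM at 24 h of fasting, a 10.9-fold fall, in a list of 24 genes of the amino acid response with 1 rise and 1 fall. Hmox1, heme oxygenase, fell from 18.1, 8.78, 12.9 and 11.9 to 2.09, 2.42, 1.80 and 3.65 CPM after 22.0 ± 10.3 CPM at 8 h, in a list of 24 NRF2 and antioxidant genes with 1 rise and 2 falls. It is expressed in macrophages too, whose summed markers are given above. E2f8, a repressor of the cell cycle in polyploid hepatocytes, fell 6.79-fold, in a list of 29 cell cycle genes with 1 rise and 1 fall. Fetub, a secreted protease inhibitor of the 18 hepatokine genes of which 2 fell, fell by 0.91 in fasted and rose by 1.70 in fed mice. The nuclear receptor gene Nr2f2 rose by 0.93 in fasted mice and fell by 0.68 in fed mice. Of 40 genes of amino acid catabolism and the urea cycle, 1 rose and 0 fell, of 24 glycolytic genes 0 rose and 1 fell, of 24 genes of sirtuins and NAD synthesis 1 rose and 1 fell, and of 16 genes of antigen presentation 1 rose and 1 fell. Of 20 heat shock genes 1 rose and 0 fell in fasted mice and 0 rose and 5 fell in fed mice, and the fasted difference was called above the fed one for 7. Of 20 genes of growth arrest and p53, 0 were called in fasted mice.

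Several list members had small differences whose calls rested on few libraries, and they are given here with that limit. Lost in 7 of the 8 fits that left out 1 fasted library were Hp, haptoglobin (-0.85 ± 0.28, adjusted p up to 0.198), Oxct1, an enzyme of ketone body use (0.64 ± 0.20, up to 0.154), Gabarapl1, an autophagosome protein (-0.96 ± 0.31, up to 0.0940), and the cochaperone gene Dnajb4 (0.74 ± 0.22, up to 0.0871). Lost in 6 were Bcat2, a branched-chain aminotransferase (0.58 ± 0.18, up to 0.166), and the class I gene H2-D1 (-0.58 ± 0.19, up to 0.122). Lost in 5 were Cat, catalase (-0.76 ± 0.24, up to 0.110), the replication factor gene Mcm10 (0.77 ± 0.23, up to 0.104), the retinoic acid receptor gene Rara (-0.56 ± 0.18, up to 0.0978) and the antioxidant gene Srxn1 (0.74 ± 0.21, up to 0.0791).

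The amino acid carrier gene Slc7a5 (0.90 ± 0.25) was lost in 4 such fits (adjusted p up to 0.0850) and Nmnat3, an enzyme of NAD synthesis (0.70 ± 0.20), in 3 (up to 0.0760). The glucocorticoid receptor gene Nr3c1 (-0.51 ± 0.15) was lost without fasted 24 h replicate 4 (adjusted p = 0.0502), and the lipase gene Lipe (-0.50 ± 0.15) without fasted 24 h replicate 1 or 2 (0.0575 to 0.0925). Oas3 (-2.56 ± 0.70), of the synthetase family, was lost without fasted 24 h replicate 2 or 3 (0.0641 to 0.0675). The interleukin 1 receptor antagonist gene Il1rn (-1.41 ± 0.38) was lost without fasted 3 h replicate 1 or fasted 24 h replicate 2 (0.0636 to 0.0732), and the deacetylase gene Sirt2 (-0.36 ± 0.11) without fasted 3 h replicate 3 or fasted 24 h replicate 2 (0.0552 to 0.0731). Of these genes, Gabarapl1 and Hp rose in fed mice, by 1.56 and 1.33 log2 units, Mcm10 rose by 1.19 and Srxn1 fell by 0.90.

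Among the most extreme differences between the feeding states, Abca14, described above, changed in fasted mice alone, and the others were called in fed mice. Atp2b2 (chr6:113745668-114042080, mm10), a calcium pump of the plasma membrane, was at 317, 286, 226 and 292 CPM at 3 h and 36.4, 19.4, 12.1 and 21.5 CPM at 24 h in fed mice, and at 11.9, 15.8, 6.12 and 13.5 and 26.3, 22.1, 55.9 and 54.6 CPM in fasted mice. It fell in the first and rose in the second, and the differences were 5.399 log2 units apart (adjusted p = 1.89e-07). Olfm2, which encodes a secreted olfactomedin, rose by 2.45 in fasted and fell by 1.68 in fed mice. Tex29, Fam81a and the glutathione transferase gene Gstm3 differed between the states by 4.43 ± 0.73, 4.06 ± 0.74 and 4.17 ± 0.99, at means no higher than 11.5 CPM at these times, with fed differences of -2.82 ± 0.55, -2.30 ± 0.44 and -3.43 ± 0.67, which were all called. The fasted rise of Tex29 was lost in 5 of the 8 fits that left out 1 fasted library (adjusted p = 0.0529 to 0.0801), and the fasted difference of Fam81a passed the test without fasted 24 h replicate 1 (adjusted p = 0.0487), with runs of library numbers as a term (0.0300) and with DESeq2 (0.0192). In the other direction Rgs16, a brake on G protein signals, rose from 2.397, 4.19, 1.68 and 2.86 to 129, 235, 149.5 and 156 CPM in fed mice and had fasted means of 81.9 and 59.2 CPM, with 5.24 CPM at 16 h between them. Chac1, a glutathione-degrading enzyme, rose in fed mice from 5 counts over the 4 libraries to 2.15 ± 0.700 CPM and was at 2.87 ± 0.781 and 1.05 ± 0.295 CPM in fasted mice (adjusted p = 0.0513, 0.0381 with DESeq2). Slc12a3, a sodium chloride cotransporter, had 2 counts over the 4 fed libraries at 3 h, so no fold is given for it. Its means were 2.41 and 1.03 CPM in fasted mice and 0.576 CPM in fed mice at 24 h. The fasted difference of Slc12a3 passed the test without fasted 3 h replicate 2 or fasted 24 h replicate 1 (adjusted p = 0.0362 and 0.0262).

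The fasted courses at 8 h and 16 h show when the called genes reached their 24 h level. On a log2 scale of mean CPM with 0.1 added, 249 of the 726 genes called higher (34.3%) had passed the midpoint between their 3 h and 24 h levels at 8 h, and 565 (77.8%) at 16 h. Of the 812 called lower, 370 (45.6%) had passed it at 8 h and 592 (72.9%) at 16 h. At 8 h, 191 of the genes called higher lay below their 3 h level and 170 of the genes called lower lay above it, as Ehhadh and Pdk4 did. At 16 h, 352 and 338 lay beyond their 24 h level. These shares describe genes chosen by their end points, and the time of day differs at each step.

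In 4 equal groups of genes by length of the gene body, the median fasted difference ran from -0.0056 in the shortest to 0.018 in the longest, and 3.62% of the shortest and 7.69% of the longest were called higher. The shares called lower were 5.72% and 6.18%, the median fed difference ran from 0.080 to -0.105, and the differences between these groups of genes were not tested. Of tested genes, 9934 (76.8%) had a promoter in the RefSeq table. The E-box CACGTG, bound by clock and bHLH factors, was present in 8.21% of these, in 7.26% of promoters of genes called higher and in 8.51% of those called lower. The cAMP response element TGACGTCA was present in 2.69%, 2.90% and 3.60%, the FoxO site GTAAACA in 2.12%, 1.996% and 2.29%, and the short glucocorticoid site AGAACA in 10.9%, 11.6% and 10.97%. The sterol element TCACNCCAC was present in 0.986%, 1.09% and 1.31%, the heat shock element GAANNTTC in 4.98%, 5.63% and 4.75%, the D-box TTATGTAA in 0.584%, 0.544% and 0.491%, the amino acid response element TGATGCAA in 0.594%, 0.726% and 0.491%, and the shorter cAMP site TGACG, which the full element contains, in 26.1%, 23.6% and 25.04%. Both strands were searched, and the absence of these letters from a window says nothing of the factor.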

How the data were processed

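Nuclear total RNA was sequenced as paired 50-base reads from tagged hepatocyte nuclei. The deposited table holds unnormalized read counts per gene, per its header; STAR 2.4.2a, DESeq2 1.24.0 and build mm10 are named in the submitters' processing notes, and neither the counting tool nor its strand setting is named there. Genes are listed by their whole span, so overlapping genes and close paralogs may share reads. Sample columns were mapped by title, with 0 left over. Of 20105 genes, 12942 passed filterByExpr (minimum count 10, total 15). All 32 tagged hepatocyte libraries were fitted together with edgeR 4.0.16 (R 4.3.3; limma 3.58.1 installed beneath it), with TMM scaling, a robust quasi-likelihood fit and Benjamini-Hochberg adjustment over all genes tested at 0.05. Contrasts were fasted 24 h minus 3 h, fed 24 h minus 3 h, and their difference. CPM are counts per 1000000 of the TMM-adjusted total. Values after ± are SD over 4 libraries for CPM and standard errors, taken from the F statistic, for log2 differences. Adjusted p-values are from edgeR unless DESeq2 1.42.0 is named. The fit was also run on counts simulated from its own model, which checks the code and not how the model suits these libraries. Marker sums were compared by a two-sided exact permutation test over libraries.

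Named genes are the 10 highest and 10 lowest called fasted differences with separate libraries and a mean of at least 1 CPM, 6 in each direction for the difference of differences, both panels, and for each list its called members with the smallest adjusted p, at most 4. Outside this rule, Acly, Alb, Atf6, Canx, Derl3 and Por were named after their values were seen. The comparison, the 39 gene lists, of which 7 are cell type markers, and the panels were chosen with earlier results of these data known. Some genes are not reported here. Clock, of the clock panel, was not among the genes tested. Alternatives were RLE scaling, no filter, the compared groups alone, runs of library numbers as a term, each replicate left out, and DESeq2.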

Additional observations from a re-analysis of the deposited data

Results flagged for a closer look

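In 282 groups of 4 fasted libraries, 2 for each named gene, 18 held a library far from the other 3 by Dixon's criterion (the gap to the nearest of the others over the whole range), or 6.38%, where chance gives about 1 in 20. Fasted 3 h replicate 2, which also stands apart on the first principal component, held 8 of them: Fetub (83.0 CPM), Hsd3b7 (151 CPM), Iigp1 (175 CPM), Marco (0.295 CPM), Mup12 (8.96 CPM), Mup9 (31.4 CPM), Nr2f2 (15.4 CPM) and Nr3c1 (478 CPM). Fasted 24 h replicate 1 held Cxcl9 (0.253 CPM). Fasted 24 h replicate 3 held Iigp1 (42.5 CPM). Fasted 24 h replicate 4 held Asns (2.79 CPM), Cd74 (1.71 CPM) and Grm8 (60.5 CPM). Fasted 3 h replicate 1 held Avpr1a (5.06 CPM), Tmem163 (27.7 CPM) and Txnip (181 CPM). Fasted 3 h replicate 4 held Irs2 (88.3 CPM) and Mvk (1.67 CPM).

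The difference between fed and fasted mice was itself called for 2820 genes. Among those named, 23 were called in opposite directions in the 2 feeding states, and the genes below are these and the most extreme of the others. The fasted difference was more positive, in log2 units, for Abca14 (4.51), Atp2b2 (5.399), Dnajb11 (2.26), Fam81a (4.06), Gstm3 (4.17), Mvk (2.96), Nr2f2 (1.61), Olfm2 (4.13), Srxn1 (1.65) and Tex29 (4.42). It was more negative for Abcg8 (-3.30), Cyp27a1 (-2.40), Cyp2c70 (-4.09), Cyp3a13 (-1.52), Elovl3 (-5.00), Fetub (-2.60), Foxo3 (-1.54), Gabarapl1 (-2.52), Hp (-2.18), Iigp1 (-2.40), Maff (-3.83), Mt1 (-7.71), Mt2 (-8.49), Ppara (-1.75), Rgs16 (-6.35) and Saa4 (-3.11). For Ppp1r3g, Chac1 and Slc12a3 the fitted values were -7.77, -6.63 and -5.64, but with 6, 5 and 2 counts over the 4 fed 3 h libraries these depend on the prior count and are no measure of size.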

How the results depend on the processing

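Leaving out 1 library at a time, 428 to 676 genes were called higher and 644 to 786 lower in fasted mice, 1219 to 1586 higher and 883 to 1117 lower in fed mice, and 965 to 1177 more positive and 1272 to 1701 more negative in the difference between them. The value of 428, without fasted 3 h replicate 3, was the only one of these, and of those under RLE scaling, no filter, the compared groups alone, the run term and DESeq2, to lie over 1.5 times from its count with all libraries. With a log2 difference of at least 1 required besides, 37 genes were shared, 343 were larger in fasted mice and 418 were called in fed mice and in the difference but not in fasted mice. Of 141 genes named with their levels, 108 were called in fasted mice. Of these, 84 were called in the same direction in every alternative and 24 were lost in at least 1, and 0 of the 141 reversed in direction with a call. RLE scaling and DESeq2 lost 0 of the 108, the run term 1, and the unfiltered fit and the compared groups alone 5 each. Libraries were not paired between groups, because each group is a separate set of mice and the labels carry no replicate numbers. The numbers used here follow accession order. Runs of library numbers, each with libraries of every group, entered only as the run term above, and the labels do not call them a batch. Genes with few counts, such as Derl3, are limited by depth.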
